A study of Mus musculus with 36 samples.

Results

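Chaperones and folding enzymes of the endoplasmic reticulum (ER), with the transcription factor gene Xbp1, were followed in mouse lung through hypoxia and return to sea-level pressure. The genes were chosen by name: Hsp90b1, Dnajb9, Hspa5, Calr, Canx, Pdia3, Pdia4, Pdia6, Hyou1 and Xbp1, each from spots that carry its symbol alone. Of these 10 genes, 9 were measured, with 17 of the 15388 spots of the array, and Hyou1 had no such spot. They are 9 of the 6971 genes named by single-symbol spots. Lungs of BALB/c mice kept at 0.5 atm were each set against lungs of unexposed mice of the same time point. Exposed mice had 1, 3, 7, 14 or 21 days of hypoxia, or 21 days of it and then 1, 3, 7 or 14 days at sea level, here called days 22, 24, 28 and 35. RNA of 5 mice was pooled per condition and day, and each of the 9 days had 4 spotted 2-colour cDNA arrays, 36 in all. The labels give no genotype beyond the strain, no age and no agent other than low pressure.

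Every value is a log2 ratio of exposed over control lung, so -1 means 0.5 times the control. That direction is likely rather than certain: the labels name hypoxic lung and Cy5 first, control lung and Cy3 second, and record no dye swap. A ratio holds no level, so neither the tissue's defining markers nor the levels of different genes could be compared. In bulk lung, fewer cells of a type and less RNA per cell cannot be told apart.

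Proteins that enter the ER are bound by the HSP70 protein BiP (Hspa5) and its J-domain partners such as ERdj4 (Dnajb9), and later by the HSP90 protein GRP94 (Hsp90b1). The lectin chaperones calnexin (Canx) and calreticulin (Calr) hold glycoproteins, and protein disulfide isomerases (Pdia3, Pdia4, Pdia6) make and exchange their disulfide bonds. When unfolded proteins accumulate, the sensors IRE1, PERK and ATF6 start the unfolded protein response (UPR), in which spliced XBP1 and cleaved ATF6 raise transcription of these chaperones. In lung, secretory cells such as alveolar type II cells and plasma cells depend heavily on this machinery.

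The promoter sequences are given because 5 of the 9 genes hold a regulatory element of the UPR. The members were named as ER chaperone and UPR genes, so this count is not independent of their choice. The ER stress response element (ERSE), CCAAT and CCACG with 9 bases of any kind between them, is bound by NF-Y at CCAAT and by ATF6 or XBP1 at CCACG. On both strands of RefSeq promoter windows (GRCm38.p6, 250 bases before to 50 after each gene start), 39 of 32851 windows (0.1187%) held it, and 5 of the 9 member windows did. Hsp90b1 held 2 copies, and Hspa5, Calr, Canx and Pdia6 held 1 each. The 6 copies follow, read in the direction of the motif, with the fixed letters in capitals and the 9-base spacer in lower case.
Hsp90b1, bases -212 to -194, chr10:86705638-86705656: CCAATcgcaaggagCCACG
Hsp90b1, bases -107 to -89, opposite strand to the gene, chr10:86705533-86705551: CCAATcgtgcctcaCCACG
Hspa5, bases -65 to -47, chr2:34772025-34772043: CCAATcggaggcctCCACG
Calr, bases -162 to -144, opposite strand to the gene, chr8:84847075-84847093: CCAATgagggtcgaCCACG
Canx, bases -145 to -127, chr11:50325800-50325818: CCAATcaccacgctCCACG
Pdia6, bases -98 to -80, chr12:17266491-17266509: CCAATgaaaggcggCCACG

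Of the 9 spacer bases, 7 are G or C in the Hspa5 copy and 6 in each of the other 5 copies. The 250 bases upstream of the 2 genes with the most negative day 28 values show where the copies lie, with each whole ERSE in capitals. The second Hsp90b1 copy appears as its reverse complement, because it lies on the strand opposite to the gene.
Hsp90b1, minus strand, chr10:86705445-86705694: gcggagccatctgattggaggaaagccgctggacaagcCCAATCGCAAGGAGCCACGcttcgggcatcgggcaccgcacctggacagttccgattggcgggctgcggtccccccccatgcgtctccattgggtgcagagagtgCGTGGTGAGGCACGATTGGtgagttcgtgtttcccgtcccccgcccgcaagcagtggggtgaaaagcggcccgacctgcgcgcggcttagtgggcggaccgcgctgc
Hspa5, plus strand, chr2:34771840-34772089: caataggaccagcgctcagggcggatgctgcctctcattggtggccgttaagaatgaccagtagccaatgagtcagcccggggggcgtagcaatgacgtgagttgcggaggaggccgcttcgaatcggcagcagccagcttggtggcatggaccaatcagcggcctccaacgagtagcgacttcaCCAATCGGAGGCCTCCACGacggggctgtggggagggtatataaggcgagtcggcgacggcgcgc

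Dnajb9, Pdia3, Pdia4 and Xbp1 had no match to these letters in the window. The related motifs ERSE-II (ATTGG and CCACG with 1 base of any kind between them, 12 windows or 0.03653%) and the UPR element core (TGACGTGG, 222 windows or 0.6758%), also searched on both strands, matched no member window. All 3 motifs hold CCACG on one strand and so can overlap, and a match describes letters, not binding.

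**Figure D1:**
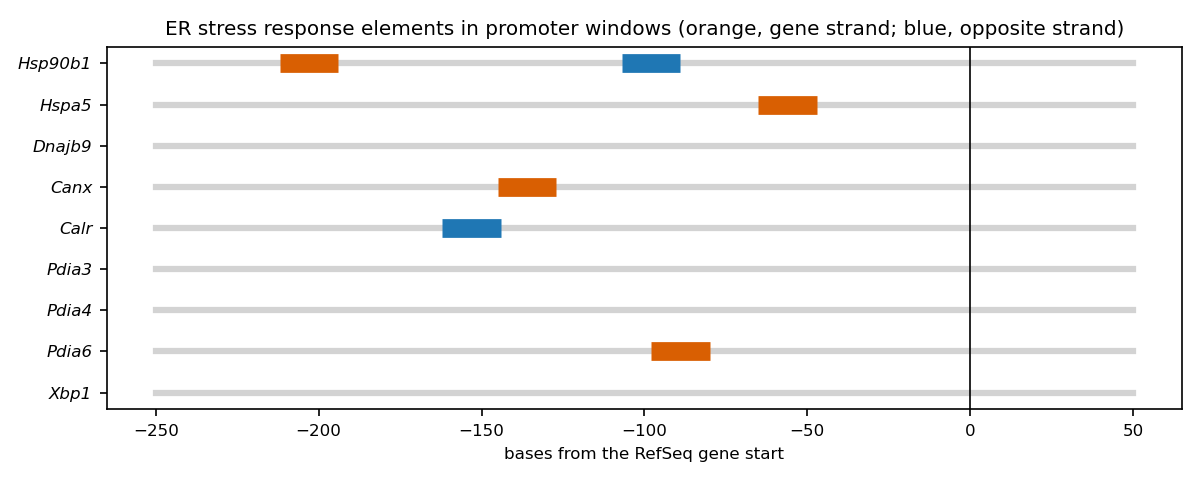
Positions of the ERSE in the promoter window of each of the 9 genes, in bases from the RefSeq gene start (grey bar, window; orange, gene strand; blue, opposite strand). Hsp90b1 has 2 copies, Hspa5, Canx, Calr and Pdia6 have 1 each, and the other 4 windows have none.

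The arrays held 14186 to 15042 spot values, with medians from -0.016 to 0.050. Their number limits the precision. The labels do not tie the 4 arrays of a day to different animals, so a single-day p-value reflects array-to-array spread alone, which may be technical. The SD over all spots of an array, averaged by day, ran from 0.205 at day 24 to 0.422 at day 7, with 0.346 at day 28 and 0.222 at day 35. Replicate 1 of day 28 had the widest spread of all arrays, 0.52. Across features, arrays of replicates 1 and 2 of different days deviated together, and so did replicates 3 and 4. The difference between these replicate pairs correlated between days at a median Pearson r of 0.60. No label explains the pairs.

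Summed over the 9 single days, 42 of 81 member values passed the limma test (Benjamini-Hochberg adjusted p over 11517 features, threshold 0.05), 38 of them lower and 4 higher. The share of all features called, in either direction, was 21.3% at day 1, 24.5% at day 3, 37.5% at day 7 and 29.1% at day 14. It was 4.84% at day 21, 1.64% at day 22, 3.19% at day 24, 33.7% at day 28 and 3.36% at day 35. Members lower numbered 5 at day 1, 3 at day 3, 4 at day 7, 2 at day 14, 3 at day 21, 4 at day 22, 7 at day 24, 9 at day 28 and 1 at day 35. The share of all features lower was 9.76% at day 1, 10.6% at day 3, 16.1% at day 7, 12.7% at day 14, 2.47% at day 21, 0.799% at day 22, 2.32% at day 24, 14.3% at day 28 and 1.42% at day 35. The share higher was 11.5%, 13.9%, 21.3%, 16.4%, 2.36%, 0.842%, 0.868%, 19.4% and 1.94% at the same days in order. The 4 higher values were Calr at days 3, 7 and 14 and Hspa5 at day 14. At day 28 all 9 members fell, and at day 24 there were 7. Of the 42 calls, 24 held whichever replicate number was left out, and 23 held in each replicate pair alone. At day 24 only the Canx call held without any one replicate number. Calls over all features at day 24 fell from 367 to 96, 87, 64 and 127 without replicates 1, 2, 3 and 4 in turn. They fell in each of these fits at the other days too.

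**Figure D2:**
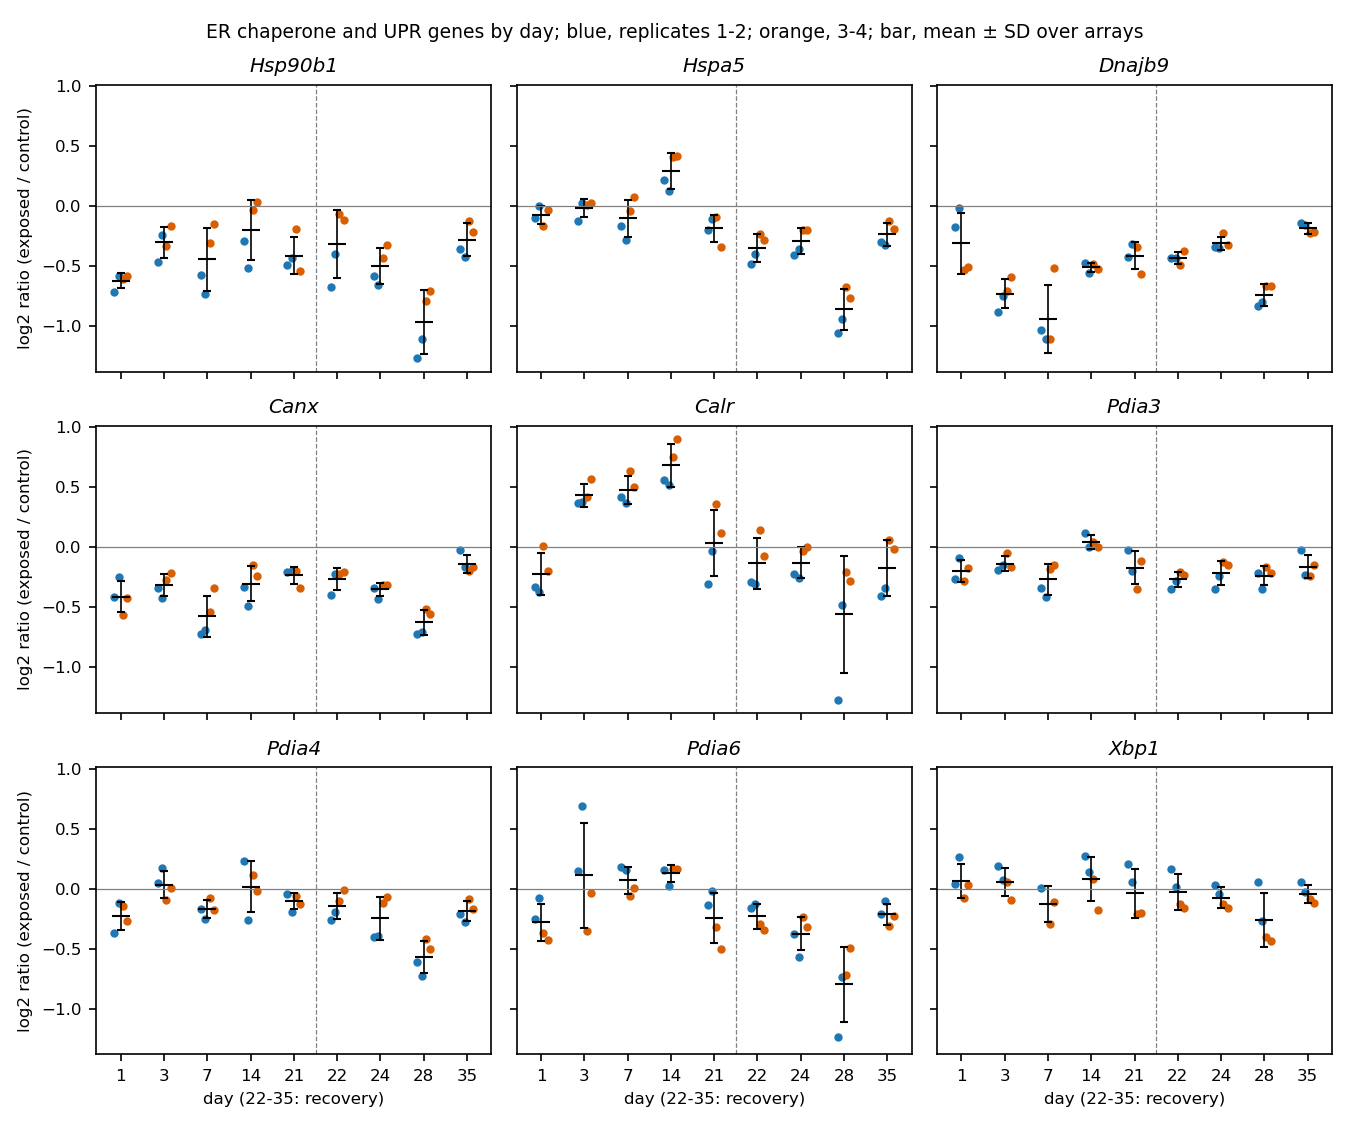
Log2 ratio of exposed over control lung on each array by day for the 9 genes, spots of a gene averaged (blue, replicates 1 and 2; orange, replicates 3 and 4; bar, mean and SD over the arrays of a day; dashed line, end of hypoxia). All 9 genes were lower at day 28, while Calr was higher at days 3, 7 and 14.

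The HSP90 chaperone Hsp90b1 was below control on 35 of 36 arrays and had its lowest values after 7 days of recovery. At day 28 its 4 arrays gave -1.27, -1.11, -0.79 and -0.71 (mean -0.97 ± 0.26 SD, limma adjusted p = 1.3e-08). This is 0.512 times the control, or 1.95-fold lower. At day 35 the arrays gave -0.36, -0.43, -0.13 and -0.21 (mean -0.28, adjusted p = 0.15), none of them as low as any array of day 28.

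During hypoxia Hsp90b1 fell at day 1, with -0.72, -0.58, -0.61 and -0.59 (adjusted p = 3.0e-05), and at days 3, 7 and 21 (means -0.30, -0.44 and -0.41). Its day 14 arrays gave -0.29, -0.51, -0.03 and 0.03 (mean -0.20, adjusted p = 0.13), with both arrays of replicates 3 and 4 near 0. Day 14 passed in replicates 1 and 2 alone (-0.40, adjusted p = 0.0087). At day 22 it gave -0.68, -0.40, -0.07 and -0.12 and did not pass (adjusted p = 0.13), whereas day 24 did (mean -0.50, adjusted p = 0.0035).

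Replicates 1 and 2 of Hsp90b1 lay below replicates 3 and 4 in their means at all 9 days, by 0.27 on average, and without overlap at 6 days. Ordered by mean, its days ran 28, 1, 24, 7, 21, 22, 3, 35 and 14, and the arrays of every neighbouring pair in that order overlapped. The day 3 call was lost without replicate 1 (adjusted p = 0.14) or 3 (0.099), and the day 21 call without replicate 1, 2 or 4 (0.055 to 0.097). The day 24 call was lost without replicate 2 (adjusted p = 0.078). Its 2 spots, 8285 and 9253, ran together over the 9 days (Pearson r = 0.97, spots of the same arrays), at -0.89 and -1.05 at day 28. Spot 8285 alone did not pass at day 3 (-0.26, limma adjusted p = 0.13) or day 21 (-0.38, 0.064), where spot 9253 did. At day 35 spot 9253 alone passed (-0.32, limma adjusted p = 0.032) and spot 8285 did not (-0.25, 0.48). Spot 9253 was empty on replicate 1 of day 24.

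The HSP70 chaperone Hspa5, the central ER chaperone and a sensor partner of the UPR, moved in both directions. At day 14 its arrays gave 0.22, 0.12, 0.41 and 0.42 (mean 0.29 ± 0.15 SD, adjusted p = 0.0010), all above 0, and it rose. At day 28 they gave -1.06, -0.94, -0.68 and -0.76 (mean -0.86 ± 0.17 SD, adjusted p = 2.3e-11), 1.82-fold lower than control. As the average of its 3 spots, all 16 recovery arrays were below 0, against 12 of 20 hypoxia arrays. It was also lower at day 22 (-0.35), day 24 (-0.29) and day 35 (-0.23, adjusted p = 0.036), where it was the sole member to pass. That day 35 call was lost when any one replicate number was left out (adjusted p 0.092 to 0.29). Calls over all features at day 35 fell from 387 to between 222 and 254 in these fits. Leaving out replicate 1 also ended the day 22 call (adjusted p = 0.079), and leaving out replicate 1, 2 or 3 the day 24 call (0.062 to 0.13). In replicates 1 and 2 alone the day 14 value was 0.17 (adjusted p = 0.12).

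The 3 Hspa5 spots did not give the same values. Spot 3478 lay above spot 10757 on 35 of 36 arrays, by 0.56 on average. At day 14 spot 3478 gave 0.42, 0.76, 0.86 and 0.94, spot 6774 gave 0.33, 0.09, 0.36 and 0.36, and spot 10757 gave -0.09, -0.48, 0.02 and -0.05. The rise at day 14 was therefore present at 2 of the 3 spots. At day 28 the same spots were at -0.39, -0.89 and -1.30, lower at all 3. Over the hypoxia phase spot 3478 was higher (0.33, adjusted p = 0.0069) and spot 10757 lower (-0.34, adjusted p = 0.031), so the phase mean of Hspa5 (-0.02) averages opposite values. Spot 3478 did not pass at day 22 (-0.18, limma adjusted p = 0.35), at day 24 (-0.04, 0.83) or over recovery (-0.19, 0.18). It was above 0 on replicates 2 and 3 of day 24 and replicate 4 of day 35. No Hspa5 spot passed on its own at day 35 (limma adjusted p 0.059 to 0.50).

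Dnajb9, a J-domain partner of BiP and a known target of XBP1, was below control on all 36 arrays. Its lowest day was day 7, with -1.04, -1.11, -1.11 and -0.52 (mean -0.94 ± 0.28 SD, adjusted p = 1.9e-11), or 1.92-fold lower. Day 3 (-0.73) and day 28 (-0.74) followed, and their arrays overlapped with those of day 7. The gene passed at every day except day 35, where its arrays gave -0.14, -0.15, -0.23 and -0.22 (adjusted p = 0.27).

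At day 1 the Dnajb9 pairs differed: replicates 1 and 2 gave -0.18 and -0.01, replicates 3 and 4 gave -0.54 and -0.51, and the call was lost without replicate 3 (adjusted p = 0.11). The day 24 call was lost without replicate 1, 2 or 3 (adjusted p 0.11 to 0.15). Spot 4579 lay below spot 13468 on 33 of 36 arrays, and both passed at days 3, 7, 14, 21, 22 and 28. At day 1 spot 13468 was at -0.11 (adjusted p = 0.22) and at day 24 at -0.16 (adjusted p = 0.17), against -0.51 and -0.46 at spot 4579, so the calls at these days rest on spot 4579. Over recovery spot 13468 was at -0.28 (adjusted p = 0.074). Pearson r between the day means of Dnajb9 and Hsp90b1 was 0.24 over 9 days. Both genes were low at day 28, while at days 3 and 7 Dnajb9 was at -0.73 and -0.94 and Hsp90b1 at -0.30 and -0.44.

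**Figure D3:**
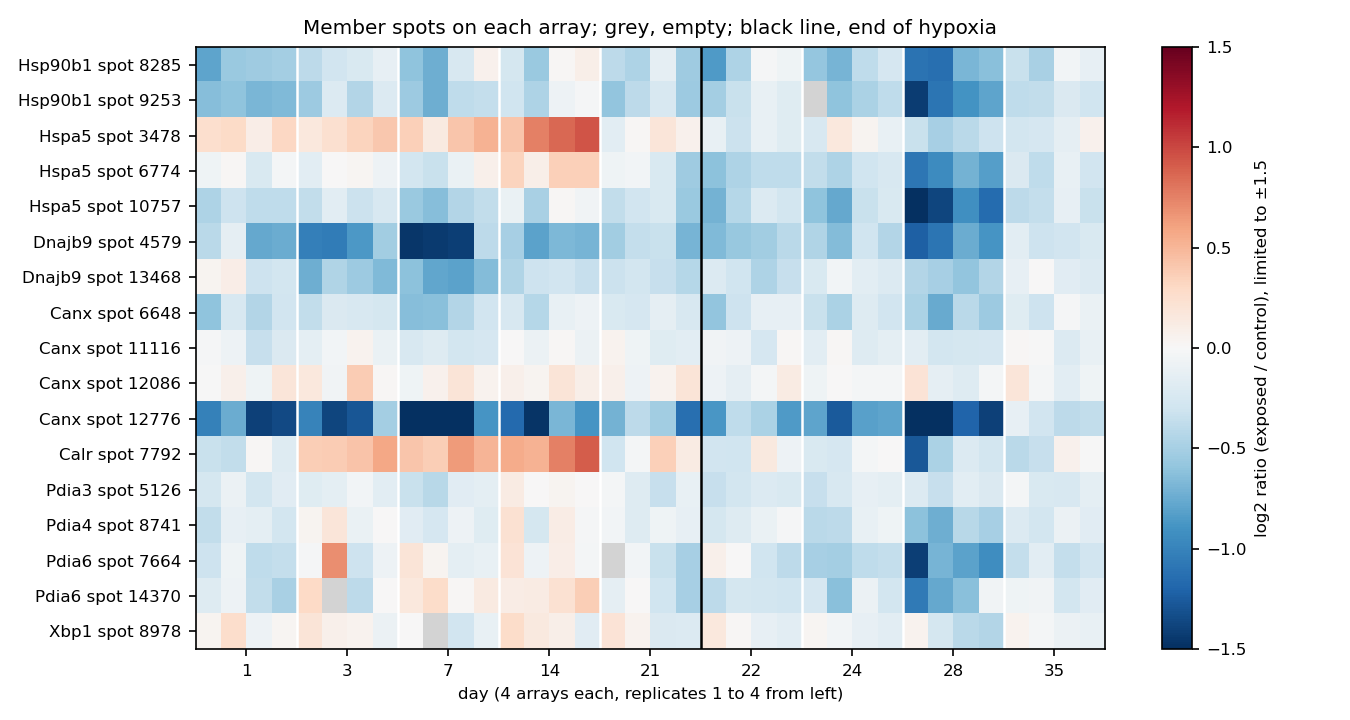
Log2 ratio of each of the 17 member spots (rows) on each of the 36 arrays (columns, by day; colour scale limited to ±1.5; grey, empty; black line, end of hypoxia). Canx spot 12776 is far below the other Canx spots, and the 3 Hspa5 spots differ at day 14, while nearly all spots are below 0 at day 28.

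The membrane-bound lectin chaperone Canx was below control on all 36 arrays as the mean of its 4 spots. It fell at day 7, with -0.72, -0.69, -0.54 and -0.34 (mean -0.57, adjusted p = 7.6e-09), and at day 28, with -0.72, -0.70, -0.52 and -0.56 (mean -0.62, adjusted p = 4.4e-09). It passed at every day except day 35 (-0.13, adjusted p = 0.39). The calls at days 21 and 22 were lost without any one of the 4 replicate numbers (adjusted p 0.055 to 0.21 and 0.055 to 0.40). Replicates 1 and 2 of Canx lay below 3 and 4 without overlap at 6 days and above them at 1, by 0.07 on average. A single spot carried much of the size of the Canx values. Spot 12776 lay below each other Canx spot on average and gave -1.94, -1.99, -1.66 and -0.88 at day 7, when spot 12086 gave -0.07, 0.06, 0.20 and 0.05. At day 28 spots 12776, 6648 and 11116 were lower (-1.68, -0.54 and -0.24), and spot 12086 was at -0.04 (adjusted p = 0.70).

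Calr, the soluble lectin chaperone and a calcium store of the ER, rose in mid hypoxia. At day 14 its single spot gave 0.56, 0.52, 0.76 and 0.91 (mean 0.69 ± 0.18 SD, adjusted p = 3.5e-05), or 1.61-fold higher than control. Days 3 (0.43) and 7 (0.48) were also higher, and every array of these 3 days was above 0. The day 3 call was lost without replicate 4 (adjusted p = 0.068). Neither day 1 (-0.22) nor day 21 (0.04) passed.

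At day 28 Calr fell, with -1.27, -0.48, -0.20 and -0.28 (mean -0.56 ± 0.49 SD, adjusted p = 0.00034). Replicate 1, the array of widest spread, lay far below the others, and in replicates 3 and 4 alone the mean was -0.24 (adjusted p = 0.053). Replicates 1 and 2 of Calr lay below 3 and 4 without overlap at all 9 days, by 0.32 on average. It was below 0 on 5 of 20 hypoxia arrays and 13 of 16 recovery arrays.

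Of the disulfide isomerases, Pdia6 had the largest fall at day 28. Its arrays gave -1.23, -0.73, -0.72 and -0.50 (mean -0.80 ± 0.31 SD, adjusted p = 1.2e-06), and it was called lower at day 24 as well (-0.37, adjusted p = 0.042). In hypoxia it passed at no day, with means from -0.28 at day 1 to 0.13 at day 14. Replicates 1 and 2 of Pdia6 lay above 3 and 4 without overlap at 6 days, and below them at days 14, 24 and 28. At day 3 the pair means were 0.42 and -0.19, but replicate 2 (0.69) rested on spot 7664 alone, with spot 14370 empty. Pdia4 gave -0.61, -0.73, -0.42 and -0.50 at day 28 (mean -0.57, adjusted p = 2.8e-07) and also fell at days 1 (-0.23) and 24 (-0.25). For Pdia4, and for Pdia6 as the average of its 2 spots, every day 28 array was below every day 35 array. At day 28 Pdia6 spots 7664 and 14370 were at -0.96 and -0.63, both called lower. Spot 14370 gave -0.06 on replicate 4 of day 28, within the range of its day 35 arrays. At day 24 spot 7664 passed (-0.44, limma adjusted p = 0.020) and spot 14370 did not (-0.31, adjusted p = 0.11).

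Pdia3, the isomerase that works with calnexin and calreticulin, had small values. It was lower at days 1, 7, 22, 24 and 28, with means from -0.20 to -0.27, and its day 28 arrays gave -0.21, -0.35, -0.16 and -0.22 (adjusted p = 0.0012). The day 24 calls of Pdia3, Pdia4 and Pdia6 were lost without any one of the 4 replicate numbers (adjusted p 0.093 to 0.30). At day 1 the Pdia3 call was lost without replicate 1, 3 or 4 (adjusted p 0.061 to 0.096) and the Pdia4 call without the same replicates (0.055 to 0.14). The day 22 call of Pdia3 was lost without replicate 1, 2 or 4 (0.064 to 0.10).

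The transcription factor gene Xbp1, whose mRNA is spliced by IRE1, passed at a single day. Its values at day 28 were 0.06, -0.27, -0.40 and -0.44 (mean -0.26 ± 0.22 SD, adjusted p = 0.011), with replicate 1 above 0. The call was lost without replicate 2, 3 or 4 (adjusted p 0.053 to 0.11). The other days had means from -0.13 at day 7 (3 arrays) to 0.08 at day 14. Replicates 1 and 2 lay above 3 and 4 without overlap at all 9 days, by 0.21 on average, opposite to Calr. A spot ratio does not separate spliced from unspliced Xbp1 mRNA.

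Over the 5 hypoxia days, with the day as the unit, 4 members were lower and none higher, where 42.4% of 12159 features were called, 17.7% lower and 24.7% higher. Dnajb9 was at -0.58 ± 0.26 (SD over 5 days, limma adjusted p = 0.00068), Hsp90b1 at -0.40 ± 0.16 (adjusted p = 0.0039), Canx at -0.37 ± 0.13 (adjusted p = 0.0015) and Pdia3 at -0.15 ± 0.12 (adjusted p = 0.022). The other 5 did not pass: Calr stood at 0.28 ± 0.37 (adjusted p = 0.055), Hspa5 at -0.02, Pdia4 at -0.09, Pdia6 at -0.04 and Xbp1 at 0.01. Calr passed as higher in replicates 3 and 4 alone (0.41, adjusted p = 0.0040), without replicate 1 (0.33, adjusted p = 0.017) or 2 (0.32, adjusted p = 0.036), and without day 1 (0.41, adjusted p = 0.0088), 21 (0.35, adjusted p = 0.041) or 28 (0.28, adjusted p = 0.043). Pdia3 missed the threshold in replicates 1 and 2 alone (adjusted p = 0.075) and without day 1, 3, 7 or 21 (0.050 to 0.088). The 3 larger falls held without any single day.

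Over the 4 recovery days 7 members were lower and none higher, where 4.77% of features were called, 3.12% lower and 1.65% higher. The values were -0.51 ± 0.32 for Hsp90b1 (SD over 4 days, adjusted p = 0.032), -0.43 ± 0.29 for Hspa5 (0.039), -0.42 ± 0.24 for Dnajb9 (0.045) and -0.40 ± 0.27 for Pdia6 (0.044). Canx was at -0.34 ± 0.21 (adjusted p = 0.038), Pdia4 at -0.28 ± 0.19 (0.044) and Pdia3 at -0.22 ± 0.04 (0.041). Calr (-0.25 ± 0.21) and Xbp1 (-0.10 ± 0.11) were below 0 and did not pass. The median of the 9 members was -0.34, against 0.02 over all features.

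These recovery calls sit close to the threshold. Without day 28 none of the 9 members passed (Hsp90b1 -0.36, adjusted p = 0.13), and the same held without day 3, day 22 or day 24. Across all features the recovery calls fell from 580 to 2, 13, 12 and 0 in these 4 fits, so the members lost their calls together with nearly all others. The recovery values without day 28 stayed below 0 for all 9 members, from -0.05 for Xbp1 to -0.36 for Hsp90b1. In addition, Dnajb9 missed the threshold without replicate 4 (adjusted p = 0.067) and Pdia4 without replicate 1 (0.053) or 2 (0.054). Of the 9 fits that each left out 1 day, the Pdia4 call held in 2 and the Dnajb9 and Pdia3 calls in 4. The Dnajb9 and Pdia4 calls each held in 1 of the 2 replicate pairs.

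**Figure D4:**
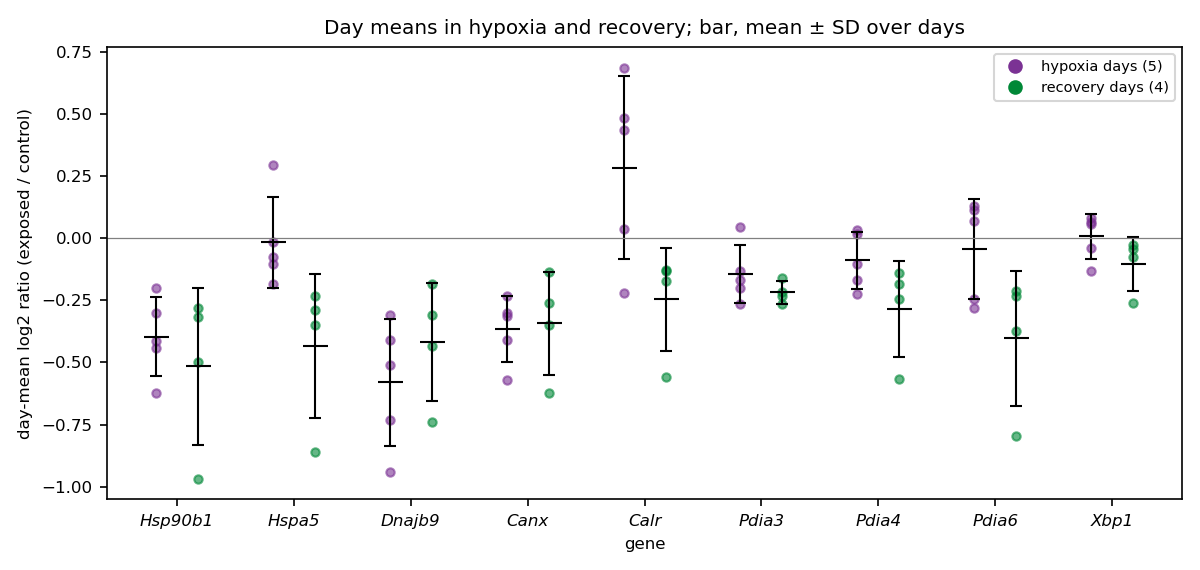
Mean log2 ratio of each day in hypoxia (purple, 5 days) and in recovery (green, 4 days) for the 9 genes, with the mean and SD over days. The lowest green point of each gene except Pdia3 is day 28, and Calr, Hspa5 and Pdia6 have their means furthest apart between the phases.

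The difference between hypoxia and recovery was tested directly, and no member passed (limma, 0 of 9, against 0.0329% of features). At an unadjusted p under 0.05 there were 1843 of 12159 features and 3 members: Calr (0.53 ± 0.17 SE, adjusted p = 0.17), Hspa5 (0.42 ± 0.13, adjusted p = 0.17) and Pdia6 (0.36 ± 0.13, adjusted p = 0.22). Hence a fall called in recovery and not in hypoxia, as for Hspa5, Pdia4 and Pdia6, is not shown to differ between the phases. With the 36 arrays as units, which ignores the shared pools, 5 members passed: Calr, Hspa5, Pdia6 and Pdia4 higher in hypoxia and Dnajb9 lower. Of 11517 features, 2061 passed in that fit, 1057 of them lower.

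The first day back at sea level was set against the last day of hypoxia. No member passed between days 22 and 21 (limma, 0 of 9 in either direction, and 0 at an unadjusted p under 0.05), where 0.643% of features did, 0.391% higher and 0.252% lower. At an unadjusted p under 0.05 there were 616 of 11517 features. The differences of the members ran from -0.17 for Calr to 0.10 for Hsp90b1.

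Between days 28 and 35 the ratios of 6 members rose and none fell, where 14.4% of features were called, 5.9% higher and 8.47% lower. Hsp90b1 rose by 0.69 ± 0.14 (SE, limma adjusted p = 0.0013), Hspa5 by 0.63 ± 0.09 (adjusted p = 1.5e-05), Pdia6 by 0.58 ± 0.15 (0.0073), Dnajb9 by 0.56 ± 0.11 (0.00067), Canx by 0.49 ± 0.09 (0.00022) and Pdia4 by 0.38 ± 0.10 (0.0071). For each of these 6, with spots of a gene averaged, the arrays of the 2 days did not overlap. Fitted spot by spot, 11 of the 17 member spots were called higher. Canx spots 12776 and 6648 rose by 1.38 and 0.39 (limma adjusted p = 0.00016 and 0.013). Canx spots 11116 (0.16, adjusted p = 0.18) and 12086 (0.02, 0.93) and Hspa5 spot 3478 (0.24, 0.14) did not pass. Calr (0.38, adjusted p = 0.12), Xbp1 (0.22) and Pdia3 (0.08) did not pass and their arrays overlapped. The Pdia6 value was 0.43 without replicate 1 (adjusted p = 0.22), and Pdia4 missed the threshold without replicate 1 (0.074) or 4 (0.051). In replicates 3 and 4 alone 3 members passed, Hsp90b1, Hspa5 and Canx, where 664 of 12072 features did. With the replicate pairs of a day as a random block, Pdia4 (adjusted p = 0.089) and Pdia6 (0.066) missed the threshold and 4 members passed. Calls over all features were then 374, against 1655 in the main fit. Scaling the arrays to a common spread kept all 9 members lower at day 28, with Hsp90b1 at -0.85 and Hspa5 at -0.76, and took Pdia4 between the days to 0.24 (adjusted p = 0.10).

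Among the 36 pairs of members, Pearson r over the 9 day means had a median of 0.61 and ran from -0.39 to 0.93. Without day 28 the median was 0.51 over 8 days. These values share arrays and pools and are a description. The genes whose course was most like that of Hsp90b1 among 6542 were Upp1 (r = 0.98 over 9 days), Itm2c (0.98), Zfp623 (0.97), Tspan9 (0.96) and Serping1 (0.95). Those most like the mean of the 9 members were Kmt5c (0.95), Tnks1bp1 (0.95), Cct3 (0.95), Wdr24 (0.95) and Ptprs (0.93). Their sizes differed: at day 28 Upp1 was at -0.42 and Tspan9 at -0.92, where Hsp90b1 was at -0.97.

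Of 21 other chaperones and folding enzymes tested, 9 were lower and none higher at day 28. Their median was -0.15, against -0.62 for the 9 members and 0.04 for all features. Of all features, 14.3% were lower and 19.4% higher at that day. P4hb, a disulfide isomerase and prolyl hydroxylase subunit, was at -0.78 ± 0.65 (SD, n = 4, limma adjusted p = 0.00013). Dnajb11, another J-domain partner of BiP, was at -0.64 ± 0.15, and Dnajc3, the J-domain protein P58IPK, at -0.60 (adjusted p = 5.1e-06). In recovery as a whole 4 of 22 were lower, against 3.12% of all features, with P4hb (-0.38), Dnajc3 (-0.31) and Dnajb11 (-0.29) furthest. Over the hypoxia phase 6 of 22 were higher and 7 lower, against 24.7% and 17.7% of all features. Serpinh1, the collagen chaperone HSP47, rose by 0.56 ± 0.28 and was at 0.94 at day 14, Ppic, a prolyl isomerase, rose by 0.32, and Dnajc3 fell by 0.36.

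Of 14 sensors, transcription factors and other UPR-related genes tested at day 28, 5 were higher and 1 lower (median 0.13). The shares of all features at that day were 19.4% higher and 14.3% lower. Atf3, a stress-induced factor, was highest at day 22 (0.84 ± 0.11, adjusted p = 3.0e-08) and was higher over recovery (0.55, adjusted p = 0.026), as was Ppp1r15a, the phosphatase subunit GADD34 (0.21, adjusted p = 0.049). Over the hypoxia phase 7 of 17 were higher and 4 lower, against 24.7% and 17.7% of all features. Atf6b, a relative of ATF6, rose by 0.31 and Trib3, a target of ATF4, by 0.29, which reached 0.60 at day 14, while Casp12, an ER-bound caspase, fell by 0.53. Tmbim6, an ER membrane protein that limits cell death, was at 0.51 at day 14.

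Among genes of ER-associated degradation 7 of 22 were higher and 1 lower over the hypoxia phase. At day 28, 5 of 21 were higher and 7 lower. Of all features, 24.7% were higher and 17.7% lower over hypoxia, and 19.4% higher and 14.3% lower at day 28. The counts of higher genes were thus not far from these shares. Os9, a lectin that delivers misfolded glycoproteins, fell by 0.44 in hypoxia and by 0.56 in recovery and was at -1.10 ± 0.37 at day 28. Syvn1, the ligase HRD1, rose by 0.31 in hypoxia and Stub1, the ligase CHIP, by 0.38, which was 0.58 at day 7. Ube2j2, an ER ubiquitin-conjugating enzyme, rose by 0.22 in recovery. Of 30 translocation and N-glycosylation genes, 9 were lower and 6 higher over the hypoxia phase, the higher ones by at most 0.20, and 13 were lower and 1 higher at day 28. Tram1 of the translocon (-0.61 in hypoxia, -0.42 in recovery, -0.83 at day 7), Sec63 (-0.53 in hypoxia, -0.72 at day 28) and Sec62 (-0.38 in hypoxia) had the largest falls over hypoxia, and Sec61a1, the channel itself, was at -0.67 at day 14. In recovery Stt3a, an oligosaccharyltransferase subunit, and Spcs2, of signal peptidase, were both at -0.20.

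Coat genes for ER to Golgi transport gave 9 lower and 1 higher of 21 at day 28, when 14.3% and 19.4% of all features were. Sar1a, the GTPase that starts COPII coats, was at -0.33 in hypoxia, -0.34 in recovery and -0.68 at day 28, whereas the coat subunit Sec31a rose by 0.29 and the Golgi tether Golgb1 by 0.21 in hypoxia. The COPI subunits Copz1 (-0.51) and Copg1 (-0.40) fell at day 28, and Copb2 (-0.23) and Copa (-0.17) in recovery. Of 21 cytosolic and mitochondrial chaperones, 7 were higher and none lower at day 35 (median 0.10), against 1.94% and 1.42% of all features. The co-chaperone Dnaja1 was at 1.04 ± 0.03 and the HSP110 protein Hsph1 at 0.98 ± 0.10 at day 35, when no member was above 0. At day 28, 8 of these 21 were lower and 5 higher, and Hspa4l, of the HSP110 family, was at -1.13. In hypoxia Hspa4l fell by 0.60, and the BAG co-chaperones Bag3 and Bag1 rose by 0.47 and 0.38, with Bag3 at 0.39 in recovery. The differences between these lists and the members were not tested.

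**Figure D5:**
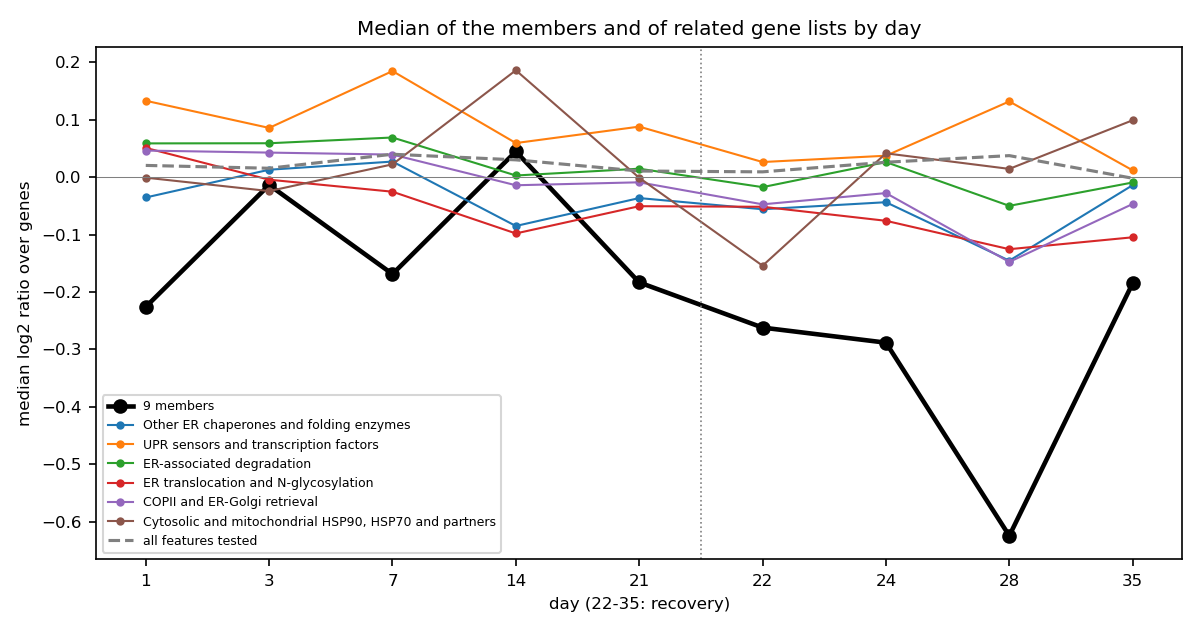
Median log2 ratio over genes by day for the 9 members (black), 6 related gene lists (coloured) and all features tested (dashed grey). The members reach -0.62 at day 28, where the other ER folding genes are at -0.15. The list of UPR sensors and transcription factors, which also holds other UPR-related genes, is at 0.13.

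Of 37 genes with an ERSE in their window, 14 were measured, 5 of them members. At day 28 all 5 of these members were lower (-0.97 to -0.56), as were the 4 members without a match (-0.74 to -0.23). Among the 9 other ERSE genes at day 28, 2 were lower, Pan2 (-0.69) and Dnajc3 (-0.60), and 1 was higher, Acacb (0.32). Their median was -0.08. Of all features, 14.3% were lower and 19.4% higher at day 28. In recovery 1 of the 9 other ERSE genes passed, Dnajc3, where 4.77% of all features did.

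Markers of lung cell types moved over the same days. Of all features, 24.7% were called higher and 17.7% lower over hypoxia, and 1.65% and 3.12% over recovery. These shares were 16.4% and 12.7% at day 14, 19.4% and 14.3% at day 28, and 1.94% and 1.42% at day 35. Over the hypoxia phase the macrophage and monocyte list had 3 of 4 lower (median -0.30, range -0.62 to -0.05), the erythroid list 4 of 5 higher (median 0.67, range 0.04 to 0.99) and the fibroblast list 4 higher and 2 lower of 8 (median 0.33). The alveolar type II list then had 2 higher and 2 lower of 6 (median 0.03). Over the recovery phase the macrophage and monocyte list had 1 of 4 lower (median -0.08), and the alveolar type II and erythroid lists had none called by limma (medians -0.11 and 0.54). At an unadjusted p under 0.05 these 2 lists had 2 of 6 and 2 of 5 genes, where 3637 of 12159 features were. At day 28 the alveolar type II list had 3 of 6 measured genes lower and none higher (median -0.35, range -0.83 to 0.06), namely Slc34a2 (-0.83), Etv5 (-0.77) and the surfactant gene Sftpd (-0.45). At the same day the erythroid list had 4 of 5 lower (median -0.46, range -0.60 to -0.28) and at day 35 4 of 5 higher (median 1.29, range 0.05 to 1.64). The macrophage and monocyte list had 2 of 4 lower at day 28 (median -0.32, range -0.57 to 0.08), and the neutrophil list 1 of 3 (median -0.22, range -2.97 to 0.15). Of the plasma cell and B cell list 2 of 15 genes were measured, and 1, Ighm, was lower at day 28 (-0.38). The fibroblast list had 2 lower and 2 higher of 8 at day 28 (median -0.10). At day 14, the day of the highest Calr value, it had 6 higher and 1 lower (median 0.53). Its median was much the same at day 3 (0.51). The erythroid list had 4 of 5 higher at day 14 (median 0.59), but also at days 1, 3, 7 and 22 (medians 0.98, 0.65, 1.05 and 1.13). The endothelial list had 1 of 3 higher at day 28 and the club cell list none of 2. The part of these cell types in the members' values was not tested.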

How the data were processed

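Per the labels, the authors extracted spot intensities with GenePix, corrected background, removed flagged values and deposited lowess-normalised log2 ratios of exposed over control lung. These log2 values were used unchanged. No channel intensity entered the work, so spots near background are not marked. Of 15388 spots, 9598 had 1 symbol, 514 several and 5276 none in the platform annotation. Entrez identifiers of 9510 matched the RefSeq gene table (GRCm38.p6), with 0 symbols updated. The per-array average of its spots stood for a gene, and remaining spots stayed single (12761 features).

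limma 3.58.1 (lmFit, eBayes) in R 4.3.3 was fitted to all features. Single days, day 22 minus 21 and day 35 minus 28 used 36 arrays (at least 3 of 4 per day, 11517 features). Phases used 9 day means (at least 2 arrays, 12159 features). Tests were two-sided, with Benjamini-Hochberg adjustment over all features and a threshold of 0.05. Members, lists and comparisons were chosen with earlier results of these data known. Every measured member is described. From each pathway list, up to 3 genes with the largest change past the threshold are named per phase and at any day. Genes of similar course are the 5 of highest r. Names of marker genes, and of ERSE genes past the threshold, were chosen after their values were seen.

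On simulated data (7556 genes), the fit for a single day found 90 percent of changes of 0.5. That share was 62 percent for day 35 minus 28, 98 percent for recovery and 88 percent for hypoxia minus recovery. The simulated noise was independent and normal, with no missing values and no replicate-pair pattern, so the shares in the real data may be lower. Alternatives were median centring, scaling, limits on missing values, single spots, replicate block, replicates or days left out, replicate pairs and arrays as units.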

Additional observations from a re-analysis of the deposited data

Results flagged for a closer look

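In 80 groups of 4 arrays, 5 had an array far from the other 3, where chance alone marks about 1 in 20 groups. Dnajb9 at day 7 stood at -0.5191 on replicate 4, above the other arrays. Hspa5 at day 3 was lowest on replicate 1 (-0.1234). Canx was lowest on replicate 4 of day 21 (-0.3351) and on replicate 1 of day 22 (-0.3991). Pdia6 at day 14 was lowest on replicate 2 (0.024).

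The difference from control changed between days 28 and 35, by a direct limma test, for Hsp90b1 (0.6856), Dnajb9 (0.5552), Hspa5 (0.6263), Canx (0.4903), Pdia4 (0.3801) and Pdia6 (0.5812). All 6 were nearer to control at day 35.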

How the results depend on the processing

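Of 941 alternative values for the 59 member values past the threshold, 764 kept direction and call, 170 lost the call and 7 turned direction, all 7 at single spots; 4 Hspa5 values short of the threshold turned too. Spot 3478 of Hspa5 alone was at 0.24 at day 1 (adjusted p = 0.023), 0.28 at day 3, 0.35 at day 7 and 0.33 over the hypoxia phase, and spot 10757 at -0.15 at day 14. Canx spot 12086 was at 0.048 at day 1, 0.12 at day 3, 0.060 at day 7, 0.10 at day 14, 0.064 at day 21 and 0.079 over hypoxia. Where every spot of a gene had to pass, 25 of 42 single-day calls and 4 of 7 recovery calls were left. The recovery count was 0 without day 3, 22, 24 or 28. Between phases 5 members passed with arrays as units, where 2061 of 11517 features did. Between days 35 and 28 the count was 3 in replicates 3 and 4, where 664 of 12072 features passed. Without 1 replicate number the single-day calls numbered 28 to 31. Leaving out replicate 1 of day 28 alone, an alternative chosen after seeing the data, kept all 9 members lower at day 28.

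Arrays of different days with the same replicate number were no more alike than arrays with the other number of their pair. Deviations from day means correlated at a median r of 0.38 and 0.40 in these cases, and at -0.40 across pairs. Of 144 same-number correlations 126 were over 0.1, the lowest -0.15, and 15 of 36 arrays correlated best with their own number. With a replicate block, 50 of 81 member values passed at single days against 42 without it, and Calr (0.38, adjusted p = 0.012) and Xbp1 (0.22, adjusted p = 0.038) were added between days 28 and 35. Calls over all features rose as well, from 2451 to 3382 at day 1 and from 367 to 786 at day 24. Replicate pairs of a day as a random block (correlation 0.42) left 28 member values, and 4 of 6 between days 28 and 35, without Pdia4 and Pdia6. Calls over all features fell with it, to 915 at day 1 and from 1655 to 374 between days 28 and 35. Scaling arrays to a common spread gave 3199 recovery features called against 580. Without replicate 1, 1852 features were called at day 28 against 3881, and without day 28 replicate 1 alone, 2174.

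Log ratios give no signal over background, 1 pool stands behind each condition and day, and the labels record no dye swap.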

Other observations

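A pair of spots carry a member's symbol together with that of a neighbouring gene and were left out of the averages. Spot 10564, annotated to Rabepk and Hspa5, was at 0.32 ± 0.29 (SD, n = 4) at day 14 and at -0.57 ± 0.15 at day 28, and so had the signs of the Hspa5 average at both days. Spot 11724, annotated to Ccdc117 and Xbp1, was at 0.46 ± 0.03 at day 1, 0.53 ± 0.21 at day 14, -0.22 ± 0.13 at day 22 and 0.70 ± 0.10 at day 35. The Xbp1 spot 8978 stood at 0.06, 0.08, -0.03 and -0.04 on these days. At day 28 spot 11724 was at 0.46 ± 0.11, opposite in sign to spot 8978 (-0.26). Which of the 2 genes each spot measured was not tested.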
